A study of Mus musculus with 24 samples.

Results

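The miR-15 and miR-16 family was followed in extracellular vesicles (EVs) from mouse serum after orthopedic surgery. Its 8 members were the rows of the deposited miRNA count table named mmu-miR-16-5p, mmu-miR-16-1-3p, mmu-miR-16-2-3p, mmu-miR-15a-5p, mmu-miR-15b-5p, mmu-miR-15b-3p, mmu-miR-195a-5p and mmu-miR-497a-5p, out of 1966 miRNAs listed. They were taken by name, under a rule that uses no measured value. All mice were wild type C57BL/6 males aged 14 to 16 weeks. Mice of the S6h, S24h and S72h groups had an open tibia fracture fixed with a pin under isoflurane and buprenorphine, and gave blood 6, 24 or 72 h later. Control mice had no surgery and were injected with saline. Each group had 6 mice and 1 small RNA library per mouse. S24h and S72h mice also received buprenorphine daily, and the controls kept for those times are not analysed here, because the Control group was the one kept for the 6 h time point. Time after surgery, repeated analgesia and the set of animals therefore cannot be told apart when S24h or S72h is set against Control or S6h. No group had anesthesia and analgesia without surgery. In every comparison with Control, S6h included, the fracture, isoflurane and buprenorphine cannot be told apart either.

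A mature miRNA binds messenger RNAs mainly through its seed, bases 2 to 8 counted from the 5′ end, and lowers their translation or stability. Members of the miR-15 and miR-16 family share a seed and are best known for restraining cell cycle genes and the survival gene Bcl2. miR-16 is abundant in blood cells, red cells among them, and has often served as a reference miRNA in serum. Each hairpin precursor can yield a 5p and a 3p arm, and the arms of one hairpin have different seeds and so different targets.

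The sequences of the 5p members (5 of the 8) are shown because their common seed, in capitals, defines the family and because counting depends on how the remaining bases tell them apart. They are RefSeq mature miRNAs on GRCm38.p6, written 5′ to 3′.
mmu-miR-16-5p: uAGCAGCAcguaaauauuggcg
mmu-miR-195a-5p: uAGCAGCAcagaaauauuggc
mmu-miR-15a-5p: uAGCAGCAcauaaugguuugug
mmu-miR-15b-5p: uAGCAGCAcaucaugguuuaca
mmu-miR-497a-5p: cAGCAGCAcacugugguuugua

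All 5 carry the seed AGCAGCA. Outside it, mmu-miR-195a-5p was nearest to mmu-miR-16-5p, with G10A and U11G as the only substitutions over 21 aligned bases (mmu-miR-16-5p base, position from the 5′ end, then the other miRNA's base). mmu-miR-15a-5p differed from mmu-miR-16-5p at 6 of 22 positions, mmu-miR-15b-5p at 8 and mmu-miR-497a-5p at 11. Between mmu-miR-15a-5p and mmu-miR-15b-5p 4 positions differed, namely A12C, G20A, U21C and G22A. Of the 1675 listed miRNAs matched to a RefSeq sequence, 10 had this seed and 6 of those had counts, the other one being mmu-miR-322-5p.

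mmu-miR-16-5p is made from 2 hairpins with an identical mature sequence, Mir16-2 at chr3:69009918-69009939 on the plus strand and Mir16-1 at chr14:61631936-61631957 on the minus strand. Its counts cannot be assigned to either locus, and how reads that align to both were counted is not given in the sources used here. Mir16-2 lies 66 bases from Mir15b in an intron of Smc4, a condensin subunit gene, while Mir16-1 overlaps an exon of the non-coding gene Dleu2, 54 bases from Mir15a, which is in a Dleu2 intron. Mir497 and Mir195a are 241 bases apart on chromosome 11. The 3p arms are specific to their hairpin, and so they are shown with their own seeds in capitals.
mmu-miR-16-2-3p: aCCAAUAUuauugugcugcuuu
mmu-miR-16-1-3p: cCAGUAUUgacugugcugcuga
mmu-miR-15b-3p: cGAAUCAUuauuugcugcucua

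Both hairpins of the Smc4 intron are printed whole because they lie side by side, and because the 3p arm of Mir16-2 was at 0 in a whole group while that of Mir15b was not. The mature arms are in capitals. The Mir15b hairpin spans chr3:69009772-69009835 and the Mir16-2 hairpin chr3:69009902-69009996, both on the plus strand.
Mir15b: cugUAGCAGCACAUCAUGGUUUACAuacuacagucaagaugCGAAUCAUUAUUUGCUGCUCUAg
Mir16-2: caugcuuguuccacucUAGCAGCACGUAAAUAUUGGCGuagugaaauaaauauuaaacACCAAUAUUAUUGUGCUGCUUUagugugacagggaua

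The libraries held 63956 to 471801 miRNA counts, with medians of 177468 in S6h and 75030 in S24h. Levels are given as CPM, counts per 1000000 of a library's own total, so a level is a share of the miRNAs sequenced: fewer vesicles of a kind and less of a miRNA per vesicle cannot be told apart. Where a library had 0 counts, a true level of up to 3 counts could go unseen, or 6.36 to 46.9 CPM depending on the library, and such floors and all count intervals cover counting error only. Of the 667 miRNAs with any count, 252 reached 10 CPM in at least 12 libraries and were tested with edgeR's quasi-likelihood test over all 24 libraries. A miRNA was called when its Benjamini-Hochberg adjusted p was under 0.05 and its fold change at least 1.5. The summed levels of other tissues' miRNAs varied widely between libraries. The skeletal muscle list (4 miRNAs) spanned 34121 to 90196 CPM in Control, 60177 to 265409 in S6h, 15599 to 43523 in S24h and 6442 to 237330 in S72h. The liver miRNA miR-122-5p spanned 3674 to 159940 CPM in Control, 2214 to 28328 in S6h, 7892 to 52155 in S24h and 4753 to 298410 in S72h, with medians of 68507, 13145, 18498 and 8064 CPM.

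mmu-miR-16-5p fell at 24 h, and it was also lower at 72 h, where the call depended on the setting. It was the most abundant member in every library, with 1.08% of all miRNA counts in Control and rank 25 among the listed miRNAs by mean CPM. In Control its level was 9092, 9609 and 16792 CPM (lowest, median and highest), and in S6h it was 6426, 11717 and 18972 CPM. In S24h the corresponding levels were 3954, 4737 and 8681 CPM, and in S72h 3188, 5211 and 7602 CPM. All 12 mice sampled at 24 or 72 h were thus below every Control mouse, whereas S6h mice lay on both sides of the Control median, 4 above and 2 below. Means were 10825 ± 2992 CPM in Control, 11834 ± 4725 in S6h, 5355 ± 1745 in S24h and 5340 ± 1954 in S72h (SD, n = 6 each).

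**Figure D1:**
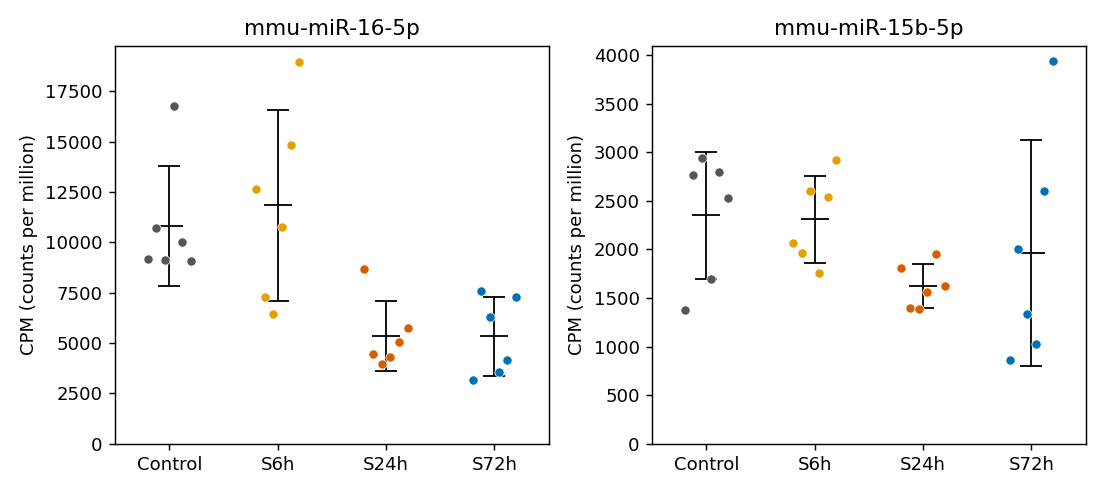
CPM per mouse (vertical axis, linear from 0) of mmu-miR-16-5p and mmu-miR-15b-5p in the 4 groups, where each point is a library and bars give the mean and SD of 6. For mmu-miR-16-5p all S24h and S72h points lie below the lowest Control point of 9092 CPM, while for mmu-miR-15b-5p the groups overlap.

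Against Control, mmu-miR-16-5p changed by 0.18 at 6 h (log2 fold change, SE 0.29, edgeR adjusted p = 0.991), by -1.20 at 24 h (SE 0.29, edgeR adjusted p = 0.00696) and by -1.01 at 72 h (SE 0.29, edgeR adjusted p = 0.0462). It was the only member called in S24h and S72h. Over all miRNAs tested, the share called was 0% in S6h (9 miRNAs had an unadjusted p under 0.05, and DESeq2 called 0), 11.9% in S24h and 3.57% in S72h. Groups that did not overlap, with the surgery group lower, were found for 2.38% of the miRNAs tested at 24 h and for 1.19% at 72 h. Set against S6h, S24h gave a log2 fold change of -1.38 (SE 0.29, edgeR adjusted p = 0.00104), in a comparison where 20.2% of the miRNAs were called and the 2 groups overlapped. From 24 to 72 h the change was 0.19 (SE 0.29, edgeR adjusted p = 0.986), with 0.397% of miRNAs called.

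The 24 h and 72 h results did not hold up equally. At 24 h the call was kept under all 10 alternative settings that could change it and after leaving out each of the 24 libraries in turn. At 72 h it was lost under 7 of the 10 settings and after leaving out 19 of the 24 libraries, where the log2 fold change remained between -1.06 and -0.71. Replicate 4 of Control had the highest level of its group, 16792 against 10711 CPM for the next. Without it mmu-miR-16-5p changed by 0.55 at 6 h (edgeR adjusted p = 0.605), by -0.83 at 24 h (edgeR adjusted p = 0.0464) and by -0.71 at 72 h (edgeR adjusted p = 0.166). The median of all tested miRNAs at 24 h was -0.21 on the log2 scale and ran from -0.21 to 0.02 over the settings. Relative to that median, mmu-miR-16-5p was lower by a log2 difference of -1.14 to -0.97. The calls over all miRNAs at 24 h were 10 higher and 20 lower, and turned to 22 higher and 19 lower when the muscle and liver lists were left out of the totals, a setting in which mmu-miR-16-5p still changed by -0.98 (edgeR adjusted p = 0.0189).

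mmu-miR-15b-5p, the 5p arm of the hairpin next to Mir16-2, was the next most abundant member. Its levels were 1372, 2651 and 2945 CPM in Control (lowest, median and highest), 1759, 2305 and 2922 in S6h, 1388, 1590 and 1952 in S24h and 861, 1671 and 3939 in S72h. All 6 S24h mice were below the Control median, but the groups overlapped. The spread was widest at 72 h, with an SD of 1166 CPM against 226 at 24 h. Its log2 fold change was 0.05 at 6 h, -0.67 at 24 h (SE 0.28, edgeR adjusted p = 0.0971) and -0.23 at 72 h (edgeR adjusted p = 0.736). Compared with S6h, the S24h value was -0.73 (SE 0.28, edgeR adjusted p = 0.0692). It was called in none of the comparisons, and under 1 setting, scaling without the red cell list, S24h against S6h gave -0.76 (edgeR adjusted p = 0.0441).

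**Figure D2:**
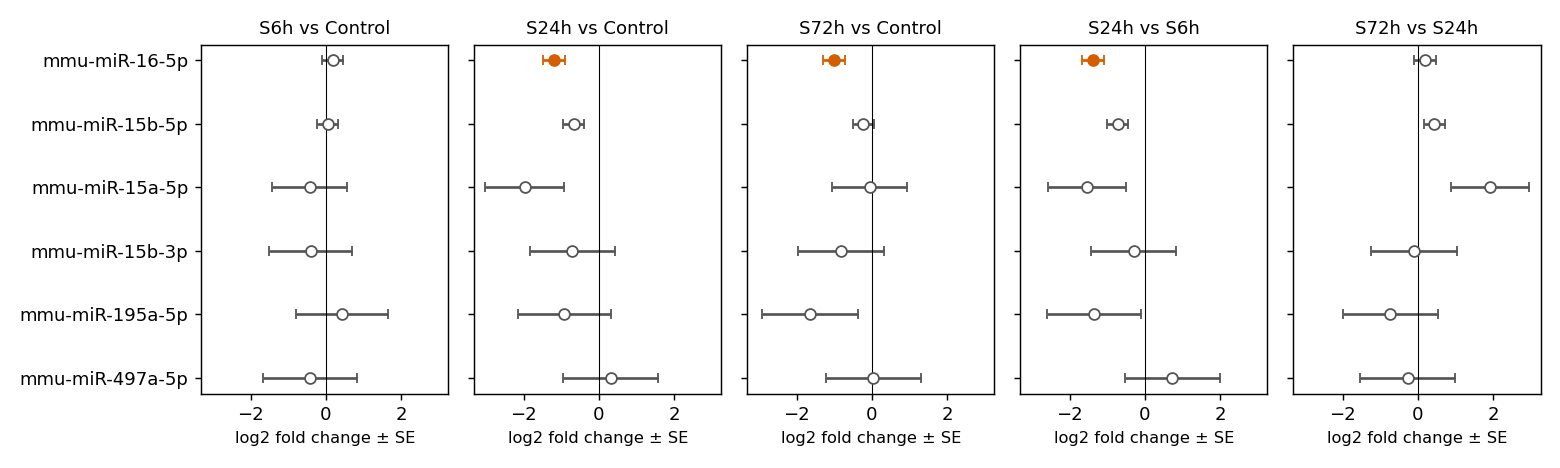
Fitted log2 fold changes (horizontal axis) with their SE for the 6 members that passed the filter, in 5 comparisons of 6 against 6 mice. Filled points, all of them mmu-miR-16-5p, were called, and the error bars of the 4 low-count members (SE 0.99 to 1.27) are several times those of the others (SE 0.28 to 0.29).

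Whether mmu-miR-15b-5p moved differently from mmu-miR-16-5p was tested on their ratio within each library, which does not depend on scaling. There were 3.72 counts of mmu-miR-16-5p for each count of mmu-miR-15b-5p in the median Control mouse, 5.98 in S6h, 3.01 in S24h and 3.56 in S72h. On the log2 scale the mmu-miR-15b-5p to mmu-miR-16-5p ratio was -2.22 ± 0.66 in Control and -1.68 ± 0.33 in S24h (SD, n = 6), a difference of 0.54 (two-sided exact permutation test, p = 0.106, adjusted p = 0.357 over 15 ratio tests). At 72 h the ratio was -1.56 ± 0.63, which was 0.66 above Control (exact permutation p = 0.128, adjusted p = 0.357). Between S6h and S24h the difference was 0.60 (exact permutation p = 0.0519, adjusted p = 0.357). A difference in behaviour between these members was therefore not shown.

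**Figure D3:**
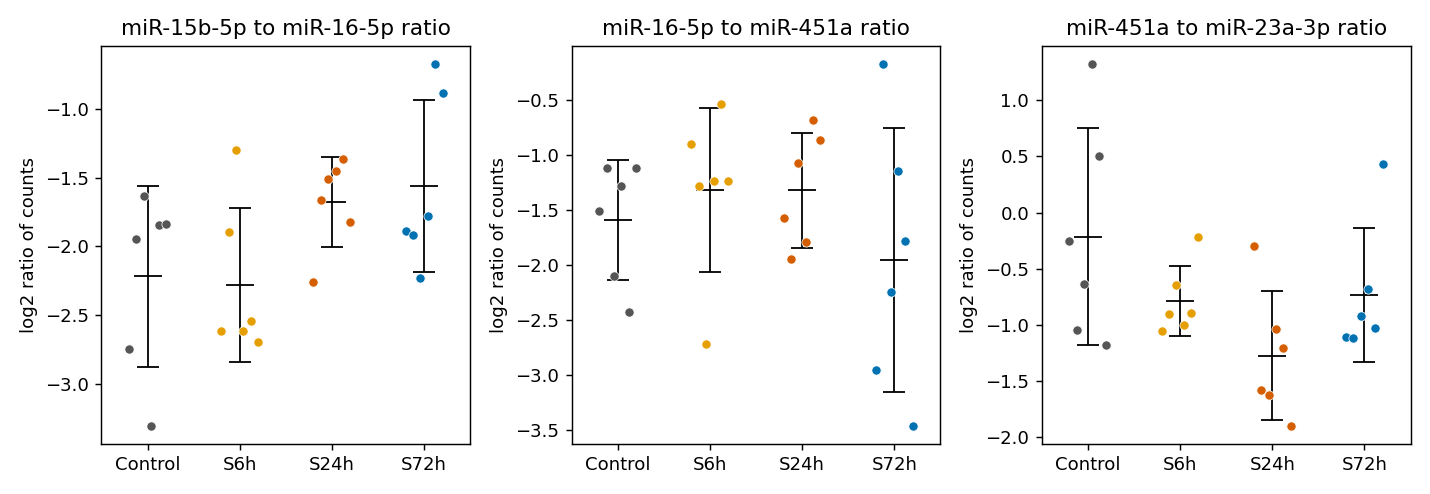
Log2 ratios of counts per mouse (vertical axis) for 3 pairs of miRNAs in the 4 groups, with the mean and SD of 6 libraries. In the mmu-miR-15b-5p to mmu-miR-16-5p panel the mean is -2.22 in Control and -1.68 in S24h, and the groups overlap in every panel.

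The remaining 5p arms, mmu-miR-15a-5p from the Dleu2 locus and mmu-miR-195a-5p and mmu-miR-497a-5p from chromosome 11, had 0 to 97 counts per library. mmu-miR-15a-5p was at 0, 223 and 500.3 CPM in Control (lowest, median and highest), at 19.5, 110 and 428 in S6h, at 0, 21.1 and 181 in S24h and at 0, 212 and 419 in S72h. All 6 S24h mice were below the Control median, and 4 of them had any count. The fitted change was -1.97 at 24 h (SE 1.05, edgeR adjusted p = 0.202) and 1.92 from 24 to 72 h (SE 1.05, edgeR adjusted p = 0.460), neither of which passed. mmu-miR-195a-5p averaged 111 ± 112 CPM in Control, 139 ± 127 in S6h, 65.9 ± 82.5 in S24h and 25.6 ± 31.8 in S72h (SD, n = 6), with log2 changes against Control of -0.92 at 24 h (SE 1.24; -1.71 to -0.11 without 1 library) and -1.66 at 72 h (SE 1.27, edgeR adjusted p = 0.523; -2.25 to -0.91 without 1 library). mmu-miR-497a-5p averaged 63.2 ± 60.4 CPM in Control and 92.6 ± 144 in S24h (SD, n = 6), where 1 mouse, replicate 3, had 376 CPM and the next 83.4. With such errors, differences of the size seen for mmu-miR-16-5p were not detectable in these members.

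**Figure D4:**
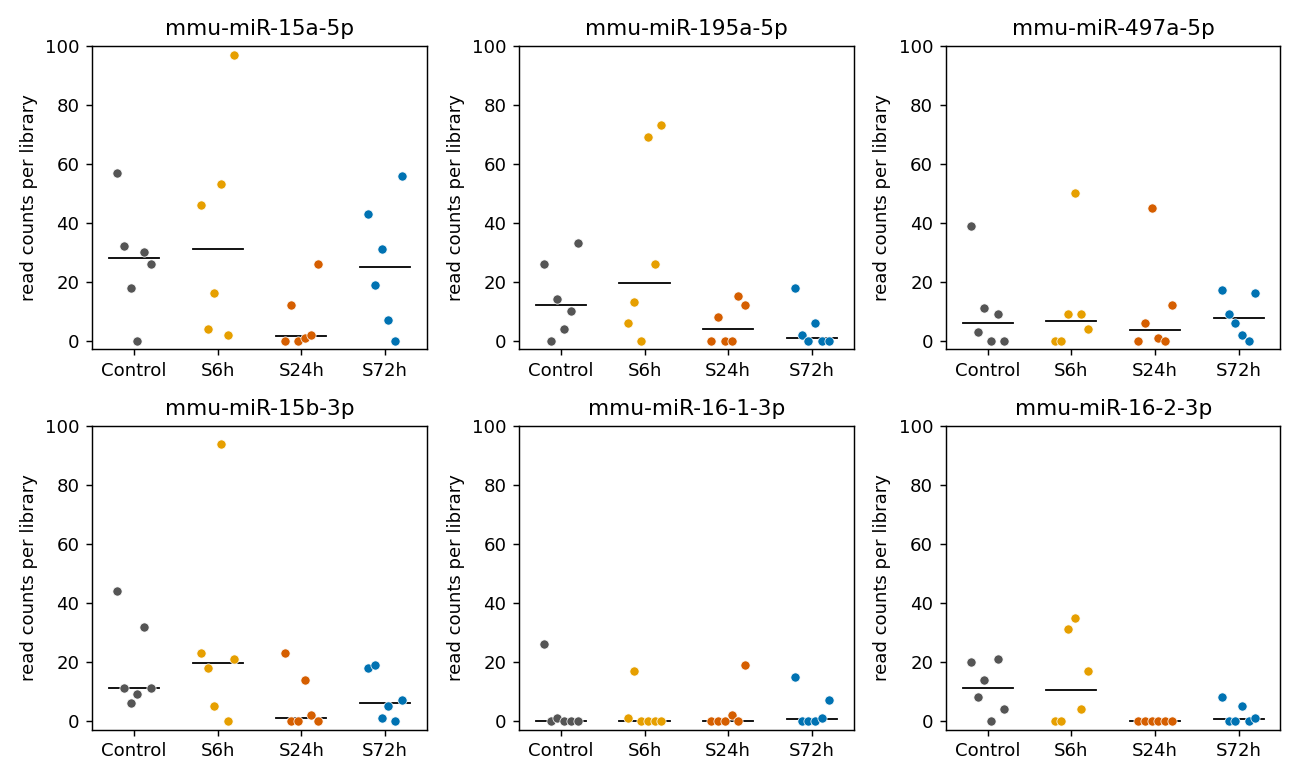
Read counts per library (vertical axis, not scaled for depth) of the 6 low-count members in the 4 groups, with 1 point per mouse and a line at the group median. Only mmu-miR-16-2-3p was at 0 in all 6 libraries of a group, S24h.

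mmu-miR-16-2-3p, whose sequence ties it to the Smc4 locus, had 67 counts in 5 of 6 Control libraries, 87 in 4 of 6 S6h libraries, 0 in all 6 S24h libraries and 14 in 3 of 6 S72h libraries. At the pooled Control level of 84.6 CPM, the 553960 counts of the S24h libraries would have held 46.9 counts. S24h was at least 15.6-fold lower than Control and at least 12.3-fold lower than S6h, taking 3 counts over the whole group as its upper limit. Leaving out 1 library lowered these bounds to as little as 11.6-fold (without S24h replicate 6) and 8.95-fold (without S6h replicate 3). By the same limit, S72h was at least 3.64-fold higher than S24h. That last value rested on few counts, 8 of the 14 being in replicate 1 of S72h, without which it was at least 2.39-fold. Because it reached 10 CPM in too few libraries it was not among the 252 miRNAs tested. With no filter, edgeR gave it an adjusted p of 0.00665 for S24h against Control and 0.00946 against S6h, and 0.215 for S72h against S24h. Over the 667 miRNAs of that fit, 5.7% were called for S24h against Control and 6.75% against S6h. Control and S24h overlapped all the same, since 1 Control library was at 0.

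mmu-miR-16-1-3p, which belongs to the Dleu2 locus, had 27, 18, 21 and 23 counts in Control, S6h, S24h and S72h, found in 2, 2, 2 and 3 libraries. Most of those counts came from 1 library in each group, with 26, 17, 19 and 15 counts, and the no-filter edgeR change at 24 h was 0.09 (SE 1.79, adjusted p = 1). mmu-miR-15b-3p, the other Smc4 3p arm, was at 137 ± 71.2 CPM in Control, 92.7 ± 69.9 in S6h, 89.8 ± 132 in S24h and 71.9 ± 90.2 in S72h (SD, n = 6), with a change of -0.71 at 24 h (SE 1.13, edgeR adjusted p = 0.745; -1.45 to -0.24 without 1 library). It made up 6.31% of the pooled counts of both Mir15b arms in Control (95% exact interval 5.23 to 7.54) and 4.21% in S24h (3.01 to 5.71), which dropped to 2.09% without replicate 1 of S24h. In S6h it made up 5.34%, and 3.20% without replicate 4. At 24 h mmu-miR-15b-3p was itself at 0 in 3 of 6 libraries, and its 39 counts were mostly in replicates 1 and 4, with 23 and 14. Its difference from mmu-miR-16-2-3p was not tested.

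Together the 8 members made up a median of 1.32% of all miRNA counts in Control, 1.41% in S6h, 0.672% in S24h and 0.743% in S72h. mmu-miR-16-5p supplied 79.4% of the family's pooled counts in Control (95% exact interval 78.7 to 80.2), 81.1% in S6h, 73.0% in S24h (71.6 to 74.4) and 68.6% in S72h. mmu-miR-15b-5p supplied 15.7% in Control, 15% in S6h, 22% in S24h and 25.1% in S72h. Deeper libraries weigh more in these pooled shares, and the medians over single libraries were 74.3, 82.5, 70.9 and 72.1% for mmu-miR-16-5p and 19.9, 14.0, 23.4 and 20.5% for mmu-miR-15b-5p in Control, S6h, S24h and S72h. The share of mmu-miR-16-5p in single libraries ran from 71.7 to 90.3% in Control, from 69.2 to 80.4% in S24h and from 61.4 to 77.5% in S72h. The 6 members tested had median log2 fold changes of -0.18, -0.81 and -0.53 in S6h, S24h and S72h relative to Control, beside -0.02, -0.21 and -0.06 over all 252 miRNAs. The S24h median lay between mmu-miR-195a-5p (-0.92, SE 1.24) and mmu-miR-15b-3p (-0.71, SE 1.13), neither of them called. Only mmu-miR-16-5p was called, so these medians do not show a change of the whole family.

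The wider family was described by a list of 9 further arms from the same hairpins and from Mir322, Mir503 and their relatives. 3 of the 9 passed the filter, and 0 were called by edgeR or DESeq2 in any of the 5 comparisons, with 1 at an unadjusted edgeR p under 0.05 in each of S24h against Control, S24h against S6h and S72h against S24h. mmu-miR-322-3p, from an X-linked hairpin, averaged 649 ± 312 CPM in Control and 360 ± 263 in S24h (SD, n = 6), a log2 change of -1.0 (SE 0.47, edgeR adjusted p = 0.151). mmu-miR-322-5p, which carries the family seed, was at 67.6 ± 56.6 CPM in Control and 18.9 ± 20.9 in S24h (SD, n = 6), and its change was -1.93 (SE 1.19, edgeR adjusted p = 0.284). For mmu-miR-503-5p, whose seed differs from the family's in its last base, A8G, the change was 0.57 (SE 0.89, edgeR adjusted p = 0.734).

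Of 5 miRNAs in a red cell list, all of which passed the filter, 3 were called lower at 24 h: miR-451a by -1.42, miR-486a-5p by -1.26 and miR-486b-5p by -1.22 (log2 fold changes, edgeR adjusted p = 0.0235, 0.0215 and 0.0314). The other members, miR-144-3p and miR-144-5p, were not called, at -1.40 (edgeR adjusted p = 0.0744) and -0.10 (edgeR adjusted p = 0.907), and DESeq2 called 4 of the 5, miR-144-3p included. miR-486a-5p and miR-486b-5p are copies whose reads the counting could split, with 23393 and 69503 pooled counts in Control and 6190 and 18692 in S24h, so they are not separate signals. The summed level of the list was 104004 to 189168 CPM in Control, 72815 to 123877 in S6h, 29669 to 121689 in S24h and 41660 to 170191 in S72h. At 72 h 0 of the 5 were called by edgeR, 2 had an unadjusted p under 0.05 and DESeq2 called 2, the miR-486 copies. The log2 fold changes of the 5 at 72 h were all negative, at -0.30 for miR-451a, -0.92 for miR-486a-5p, -0.92 for miR-486b-5p, -0.88 for miR-144-3p and -0.64 for miR-144-5p, beside -1.01 for mmu-miR-16-5p. With scaling computed without the red cell list, mmu-miR-16-5p changed by -1.14 at 24 h (edgeR adjusted p = 0.00864). That setting changes only the scaling factors, and the library totals still hold the red cell counts. It therefore cannot test a red cell part in this change.

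The log2 ratio of mmu-miR-16-5p to miR-451a was -1.59 ± 0.55 in Control, -1.32 ± 0.74 in S6h, -1.32 ± 0.52 in S24h and -1.96 ± 1.2 in S72h (SD, n = 6). It differed from Control by 0.27 at 24 h (exact permutation p = 0.394, adjusted p = 0.591) and by -0.37 at 72 h (exact permutation p = 0.50, adjusted p = 0.63). The ratio of miR-451a to miR-23a-3p, an index of red cell lysis in serum, was lower by a log2 difference of -1.06 at 24 h (exact permutation p = 0.0368, adjusted p = 0.357). None of the 15 ratio tests passed after adjustment. The platelet list had a summed level of 53645 to 82585 CPM at 24 h, against 20539 to 58347 in Control, and most of it was miR-191-5p, with a mean of 56558 CPM at 24 h and 33585 in Control. Of its 4 miRNAs edgeR called 1, miR-199a-3p, which was lower (-1.66), while miR-126a-3p at 0.64, miR-191-5p at 0.59 and miR-223-3p at -0.80 were not called, and DESeq2 called 2, the added one being miR-191-5p, which was higher. The leukocyte list had 0 of 5 called by edgeR or DESeq2, with 1 at an unadjusted edgeR p under 0.05. That one was miR-223-3p, which is in the platelet list as well. Between S6h and S24h, edgeR called miR-451a lower (-1.27), 3 of the 4 muscle miRNAs lower (miR-133a-3p -1.97, miR-1a-3p -2.80, miR-499-5p -4.19), miR-199a-3p (-2.26) and miR-223-3p (-1.06) lower, and miR-191-5p (0.79) and miR-150-5p (1.39) higher. The part of the red cell, muscle, platelet and leukocyte lists in the mmu-miR-16-5p result was not tested.

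**Figure D5:**
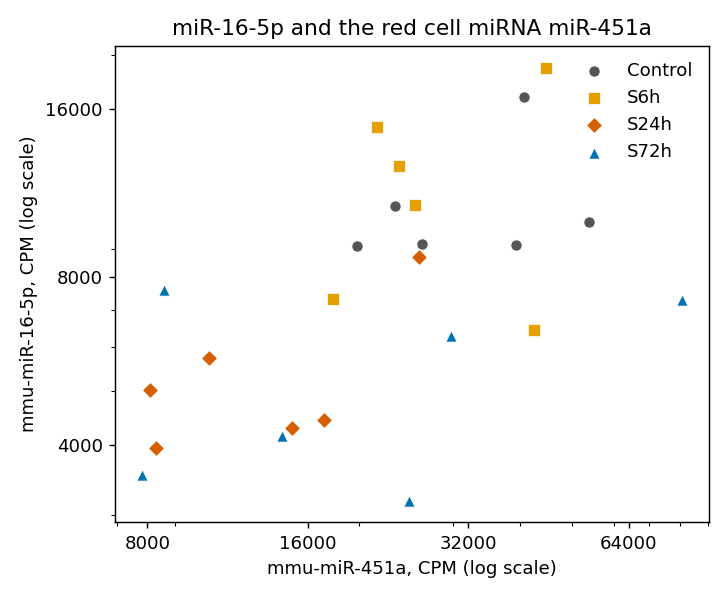
mmu-miR-16-5p against miR-451a, both in CPM on log axes, with 1 point per mouse and a symbol per group. S24h mice occupy the lower left except for 1 mouse at 8681 CPM of mmu-miR-16-5p, and S72h mice spread over the whole range of miR-451a, from 7821 to 80435 CPM, at a low mmu-miR-16-5p.

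Ties of mmu-miR-16-5p within groups were tested with mmu-miR-15b-5p and with miR-451a, and neither was shown. With each group's mean removed, mmu-miR-16-5p correlated with mmu-miR-15b-5p over the 24 libraries at Pearson's r = 0.37 (permutation p = 0.121, adjusted p = 0.183 over 2 relations) and Spearman's rho = 0.28 (permutation p = 0.223). Inside single groups r was -0.34 in Control, 0.37 in S6h, 0.63 in S24h and 0.66 in S72h. With miR-451a the values were r = 0.32 (permutation p = 0.183, adjusted p = 0.183) and rho = 0.31 (permutation p = 0.174), and 0.33, 0.15, 0.61 and 0.33 inside the groups. Leaving out the 2 libraries farthest from the median of mmu-miR-16-5p, replicate 6 of S6h and replicate 4 of Control, gave r = 0.45 and r = 0.24. Without 1 library r ran from 0.26 to 0.47 with mmu-miR-15b-5p and from 0.20 to 0.48 with miR-451a. With TMM-scaled CPM it was 0.22 and 0.26.

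The 5 miRNAs whose profile over the 24 libraries was most like that of mmu-miR-16-5p were miR-143-3p (Pearson's r = 0.82), miR-22-3p (0.77), miR-375-3p (0.76), miR-29a-3p (0.76) and miR-93-5p (0.73). These r values are on log2(CPM + 1), describe 24 libraries that share their totals and group differences, and carry no test. mmu-miR-15b-5p ranked 22 and miR-451a 23 among the 251 other miRNAs, each with r = 0.55. The rest of the red cell list lay above and below: miR-144-3p ranked 10 (r = 0.63), miR-486a-5p 26 (0.53), miR-486b-5p 27 (0.52) and miR-144-5p 110 (0.09). No other family member was among the nearest 5.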

How the data were processed

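Serum EV RNA of 24 mice was sequenced as small RNA libraries. The authors trimmed adapters, aligned reads to GRCm38/mm10 with Bowtie, kept reads of miRNA length and summed them per mature miRNA with featureCounts on miRBase annotation; the deposited values are raw read counts, unnormalized. Members follow a rule on names that uses no measured value, but the family, lists and tests were chosen with earlier results of these data known. All 8 members are named, with a list of relatives and the 5 miRNAs most like mmu-miR-16-5p.

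edgeR 4.0.16 (R 4.3.3) with TMM scaling and a group term was fitted to all 24 libraries. miRNAs needed 10 CPM in 12 libraries, and calls an adjusted p under 0.05 with a fold of 1.5. DESeq2 1.42.0 was an alternative, beside other scalings, filters and samples. Ratios used a pseudocount of 0.5 and all 924 assignments of 6 against 6 mice, two-sided. Correlations used 100000 permutations of log2(CPM + 1). Count intervals are 95% Clopper-Pearson. Scripts were tested on simulated data. Sequences came from RefSeq, and hairpin locations from GENCODE.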

Additional observations from a re-analysis of the deposited data

Results flagged for a closer look

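Values that stood apart were sought with Dixon's test in 36 groups of 6 libraries, of which chance alone would give 1.8. It marked 5. Replicate 4 of Control had 16792 CPM of mmu-miR-16-5p, next to 10711 CPM, a gap of 0.790 of the group's range. Replicate 2 of S72h had 248 CPM of mmu-miR-15b-3p, next to 73.5 CPM (0.703 of the range). Replicate 3 of S24h had 376 CPM of mmu-miR-497a-5p, next to 83.4 CPM (0.778). For the log2 ratio of miR-16-5p to miR-451a, replicate 3 of S6h was at -2.72, next to -1.28 (0.659). For the log2 ratio of miR-451a to miR-23a-3p, replicate 6 of S72h was at 0.44, next to -0.68 (0.716).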

How the results depend on the processing

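mmu-miR-16-5p stayed called at 24 h, against Control and against S6h, under all 10 alternatives that could change it (dropping the fold rule could not) and all 24 leave-one-out fits. At 72 h the number of family members called was 0, in place of 1, with library totals only, with TMM without the red cell list, with no filter, with filterByExpr, with only the groups compared, with the replicate block, and with the muscle and liver lists left out, a setting chosen after seeing the data. Leaving out 1 library gave 0 to 1 members called at 72 h, and the call was kept only without S6h replicate 2, 3 or 5, S24h replicate 1 or S72h replicate 2. DESeq2 kept it (-1.02, adjusted p = 0.00759). Numbers of miRNAs called over all those tested ranged over the settings from 30 to 50 at 24 h, 0 to 27 at 72 h (main 9, DESeq2 27, only the groups compared 0, of which 41 had an unadjusted p under 0.05) and 37 to 60 for S24h against S6h. Without 1 library they ranged from 20 (Control replicate 5) to 50 (S24h replicate 2) at 24 h, from 1 (Control replicate 5) to 18 (S24h replicate 1) at 72 h, where 15 of the 24 omissions moved the count by over 1.5 times, and from 33 (S6h replicate 5) to 51 for S24h against S6h. For S72h against S24h the count was 1, with 4 by DESeq2, 0 with only the groups compared (18 at an unadjusted p under 0.05), 10 of 667 with no filter and 1 to 3 without 1 library (3 without S24h or S72h replicate 2). With no filter 2 members were called at 24 h (38 of 667 miRNAs) and 2 for S24h against S6h (45 of 667), the added one being mmu-miR-16-2-3p; TMM without the red cell list also gave 2 for S24h against S6h, with mmu-miR-15b-5p.

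Some values that were not called turned sign. For mmu-miR-15b-5p at 6 h the value was -0.041 with DESeq2, -0.041 with RLE, -0.025 with library totals and -0.040 with no filter, and -0.053 to 0.20 without 1 library. For mmu-miR-16-5p from 24 to 72 h it was -0.0042 with library totals. For mmu-miR-15a-5p at 72 h it was 0.075 with filterByExpr, 0.011 with only the groups compared and 0.082 without the muscle and liver lists. Without 1 library mmu-miR-15a-5p at 72 h ran from -0.29 to 0.39 and mmu-miR-15b-5p at 72 h from -0.33 to 0.0025. mmu-miR-195a-5p ran from -0.022 to 1.0 at 6 h and from -1.45 to 0.14 from 24 to 72 h. mmu-miR-497a-5p ran from -0.90 to 0.20 at 6 h, -0.79 to 1.25 at 24 h, -0.11 to 0.79 at 72 h, -0.40 to 1.44 for S24h against S6h and -0.72 to 1.0 from 24 to 72 h. mmu-miR-15b-3p ran from -1.02 to 0.19 for S24h against S6h and from -0.89 to 0.78 from 24 to 72 h. The log2 ratio of miR-15b-5p to miR-16-5p ran from -0.28 to 0.057 at 6 h and from -0.061 to 0.25 from 24 to 72 h, and that of miR-16-5p to miR-451a from -0.28 to 0.15 for S24h against S6h, where a pseudocount of 3 gave 0.0018. With group means kept, mmu-miR-16-5p correlated at r = 0.550 with mmu-miR-15b-5p and at 0.549 with miR-451a (adjusted permutation p = 0.00602 for both), which includes the group differences.

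Replicate numbers were not treated as pairs in the main fit. Deviations of same-numbered libraries correlated between -0.16 and 0.21, over 0.1 in at most 3 of 6 pairs, and pairing was not tested. The replicate block gave log2 changes of -0.30 for mmu-miR-195a-5p at 6 h, -0.12 for mmu-miR-497a-5p at 24 h, -0.038 for it in S24h against S6h and 0.32 from 24 to 72 h, and 0.38 for mmu-miR-15b-3p from 24 to 72 h. The causes were not tested. The 6 low-count members had 0 to 97 counts per library.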

Other observations

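Some arms of the family's hairpins appeared in few libraries. mmu-miR-503-3p had 23 counts in 3 of 6 S6h libraries, 2 counts in 1 S72h library and 0 in Control and S24h. mmu-miR-15a-3p, the other arm of Mir15a, had 4 counts in 2 of 6 S72h libraries and 0 in the other groups. mmu-miR-195a-3p had 10 counts in 2 Control libraries, 27 in 3 S6h libraries, 14 in 1 S24h library and 4 in 1 S72h library.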
